A study of Mus musculus with 2 samples.

Results

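The 3 genes of miR-124 (Mir124a-1, Mir124a-2 and Mir124a-3) and the 3 genes of miR-9 (Mir9-1, Mir9-2 and Mir9-3) were followed through the microRNA (miRNA) counts of mouse hippocampus. They were chosen by name, with earlier results of these data known, as all annotated copies of a pair of brain miRNAs whose mature forms do not differ between copies. They are 6 of the 2202 miRNA genes counted. The tissue was hippocampus of 2-month-old B6CASTF1/J females, hybrid offspring of C57BL/6J and CAST/EiJ parents, and small RNAs were sequenced in 2 libraries, biological replicates 2 and 1 of a single group with no labelled treatment. The replicates are labelled as biological and have separate tissue records, but both records cite 1 donor record. The labels do not say whether the tissue came from separate animals, so the spread between them may be in part technical. Which layer of the hippocampus was taken is not named. Replicate 2 held 5979247 sense counts on miRNA genes and replicate 1 held 4517648. Levels are given in CPM, the counts of a gene for each 1000000 that all miRNA genes hold on the sense strand, and a gene with 0 counts may have a level of up to 0.502 CPM in replicate 2 and 0.664 CPM in replicate 1, the value that 3 counts would give. The miRNAs known from neurons, oligodendrocytes and endothelium were abundant in both libraries, with means of 20435 CPM for Mir132, 4127 CPM for Mir338 and 12438 CPM for Mir126a. Mir204 of the choroid plexus had a mean of 997 CPM. Lower means were found for Mir142 (66.1 CPM) and Mir155 (26.5 CPM) of microglia and leukocytes and Mir451a of red cells (78.1 CPM).

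A miRNA gene is transcribed into a longer RNA that folds into a hairpin, from which a short mature RNA is cut from either arm. The mature RNA pairs with messenger RNAs mainly through its seed, bases 2 to 8, so gene copies that give the same mature RNA repress the same messages. miR-124 is a neuronal miRNA that represses non-neuronal genes such as the splicing regulator Ptbp1. miR-9 acts in neural progenitors and neurons, where it represses transcription factors such as Hes1 and Nr2e1, and its 3p arm is also used.

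The hairpins of the miR-9 genes are shown because their differences set which reads can be given to a copy. Each is printed 5′ to 3′ from RefSeq (GRCm38.p6), with both mature arms in capitals.
Mir9-3: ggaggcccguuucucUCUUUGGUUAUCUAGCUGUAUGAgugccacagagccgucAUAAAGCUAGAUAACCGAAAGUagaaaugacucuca
Mir9-1: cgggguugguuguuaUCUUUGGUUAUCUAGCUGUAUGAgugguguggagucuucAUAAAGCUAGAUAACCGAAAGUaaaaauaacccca
Mir9-2: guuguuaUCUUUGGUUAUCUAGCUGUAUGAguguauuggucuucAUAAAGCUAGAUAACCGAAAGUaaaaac

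The mature forms are shown with the seed in capitals.
miR-9-5p: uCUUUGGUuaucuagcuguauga
miR-9-3p: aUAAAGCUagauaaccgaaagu

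Both arms were letter for letter the same in the 3 genes, and no other gene in the RefSeq table carried a mature form with either seed. RefSeq sequences were matched for 3 of the 6 genes, those of miR-9. The copies differed only outside the arms. After the end of miR-9-5p, all 3 copies shared 3 further bases and then parted from each other, by G27U between Mir9-1 and Mir9-2, G27C between Mir9-1 and Mir9-3 and U27C between Mir9-2 and Mir9-3, with positions counted from 1 at the first base of the arm. A read that starts at the first base of miR-9-5p therefore needs 27 bases to tell the copies apart. After miR-9-3p, Mir9-3 parted from both other copies at A24G, whereas Mir9-1 and Mir9-2 parted at U28C. Upstream of miR-9-5p, Mir9-3 differed from both at the first base, while Mir9-1 and Mir9-2 shared all 7 bases that the shorter hairpin holds. Upstream of miR-9-3p, Mir9-3 differed from both at the third base and the other two from each other at the seventh. On 3 of the 4 arm ends, Mir9-3 was thus told from both others by fewer bases than Mir9-1 or Mir9-2 was, and at the end of miR-9-5p by the same number. The labels give a size range under 30 bases for these libraries.

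**Figure D1:**
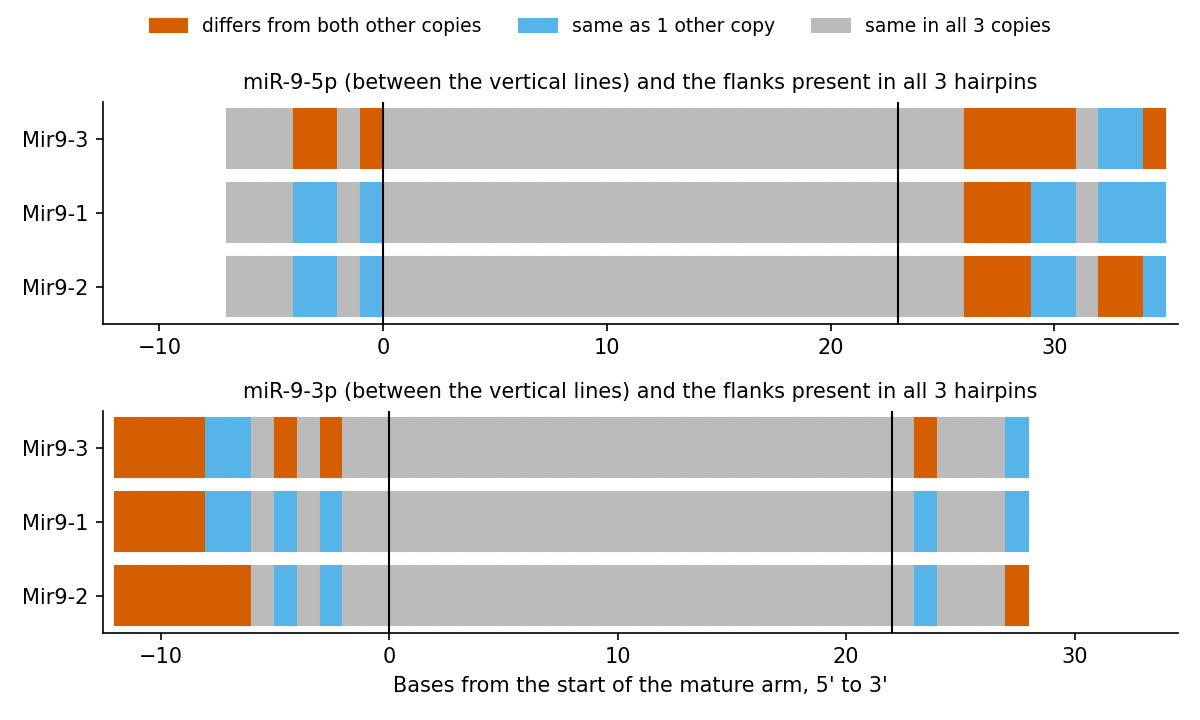
Identity of the 3 miR-9 hairpins around each mature arm, by position in bases from the start of the arm (x axis), for miR-9-5p (top) and miR-9-3p (bottom). Grey bases are the same in all 3 copies, blue ones the same as 1 other copy, and orange ones differ from both; both arms are grey throughout, and orange begins nearest to the arms in Mir9-3 except after miR-9-5p, where it begins at the same base in all 3.

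Over whole hairpins, 26 bases was the longest stretch that Mir9-3 had in common with either other copy, against 33 bases between Mir9-1 and Mir9-2. Counted in windows of 22 bases, about the length of a mature miRNA, 9 of 69 windows of Mir9-3 (13.0%) occurred in a hairpin at another locus, against 24 of 68 in Mir9-1 (35.3%) and 24 of 51 in Mir9-2 (47.1%). In the miR-124 genes the longest stretches in common, from the GENCODE M21 hairpins, were 31 or 32 bases for each pair. Shared windows made up 21 of 64 in Mir124a-1, 26 of 88 in Mir124a-2 and 20 of 47 in Mir124a-3. Among all annotated genes with at least 1 shared window, the median share was 62.6%, so that none of the 6 hairpins was mostly made of shared windows. In the miR-9 hairpins both mature arms lie in stretches common to all 3 copies; no arm was located in the miR-124 hairpins. The tables do not give a read that maps to several places to any gene.

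The 6 genes lie on 5 chromosomes, all on the plus strand of mm10. Mir9-3 (ENSMUSG00000093238.1, chromosome 7, 79505264 to 79505353) lies in an intron of the long non-coding gene Mir9-3hg. Mir9-1 (ENSMUSG00000106493.1, chromosome 3, 88215598 to 88215686) lies inside the non-coding gene Gm3764, between its exons, and a further annotated miRNA gene, Gm25641, covers it on the opposite strand. Mir9-2 (ENSMUSG00000065424.2, chromosome 13, 83738814 to 83738885) lies within an exon of the non-coding gene C130071C03Rik. Mice lacking both Mir9-2 and Mir9-3 are known for defects of the developing forebrain. Mir124a-1 (ENSMUSG00000065597.1, chromosome 14, 64590657 to 64590741) lies within an exon of its non-coding host Mir124a-1hg, also called Rncr3. Mir124a-2 (ENSMUSG00000093073.1, chromosome 3, 17795662 to 17795770) lies within Mir124-2hg and overlaps an exon of it in part. Mir124a-3 (ENSMUSG00000065454.2, chromosome 2, 180894040 to 180894107) is inside no annotated gene and shares its last 3 bases with the start of the non-coding gene Gm27032. Of the 6 hairpins, 5 therefore sit inside a long non-coding RNA gene.

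The question for a single group is how much of each copy the libraries hold. Mir9-3 stood well above the other 5 genes, and the miR-9 genes together held more counts than the miR-124 genes. Over the miR-9 genes the libraries held 763 counts (replicate 2) and 370 counts (replicate 1), a mean of 105 ± 32.3 CPM (SD, n = 2), and the miR-124 genes had 12 and 19, a mean of 3.11 ± 1.55 CPM. The sum over miR-9 was 33.7 times that over miR-124 by the means, 63.6 times in replicate 2 alone and 19.5 times in replicate 1 alone. Reads mapping to several places are in neither sum, so these are not ratios of the mature miRNAs in the tissue. One read covers a whole mature miRNA, so counts were not divided by length. In tissue, fewer cells that make a miRNA and less of it per cell cannot be told apart.

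Mir9-3 held most of the counts of its family. It had 650 counts in replicate 2, a level of 109 CPM (95% Wilson interval 101 to 117), and 343 in replicate 1, a level of 75.9 CPM (68.3 to 84.4). With a mean of 92.3 ± 23.2 CPM it ranked 203 among the 2202 genes, of which 774 had any count.

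Mir9-1 had 101 counts in replicate 2 (16.9 CPM, interval 13.9 to 20.5) and 22 in replicate 1 (4.87 CPM, interval 3.22 to 7.37). Its mean of 10.9 ± 8.50 CPM put it at rank 310, and the libraries stood further apart than for Mir9-3. Mir9-2 had 12 counts in replicate 2 (2.01 CPM, interval 1.15 to 3.51) and 5 in replicate 1 (1.11 CPM, interval 0.473 to 2.59), at rank 462. The order Mir9-3, Mir9-1, Mir9-2 was the same in both libraries. The highest counts were on Mir9-3, which differs from the others closest to the arms at all but the end of miR-9-5p. Mir9-1 and Mir9-2 differ from both other copies at the same distances from the arms, and held 101 and 22 counts against 12 and 5. The part of these sequence differences in the order of levels was not tested, and the host RNAs were not analysed here.

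Among the miR-124 genes, Mir124a-1 had 9 counts in replicate 2 (1.51 CPM, interval 0.792 to 2.86) and 13 in replicate 1 (2.88 CPM, interval 1.68 to 4.92), and averaged 2.19 ± 0.970 CPM at rank 428. Mir124a-3 had 3 counts in replicate 2 and 2 in replicate 1, which puts it at or below the level of 3 counts in both. Mir124a-2 had 0 counts in replicate 2, which allows up to 0.502 CPM, and 4 in replicate 1 (0.885 CPM, interval 0.344 to 2.28). The order between Mir124a-3 and Mir124a-2 is thus not resolved at this depth.

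Ordered by mean, Mir9-3 and Mir9-1 did not overlap in their values over both libraries, nor did Mir9-1 and Mir124a-1, or Mir9-2 and Mir124a-3. Mir124a-1 and Mir9-2 overlapped, from 1.51 to 2.88 CPM against 1.11 to 2.01 CPM, and so did Mir124a-3 and Mir124a-2. The ranges rest on 2 libraries, and no test was made of this order.

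**Figure D2:**
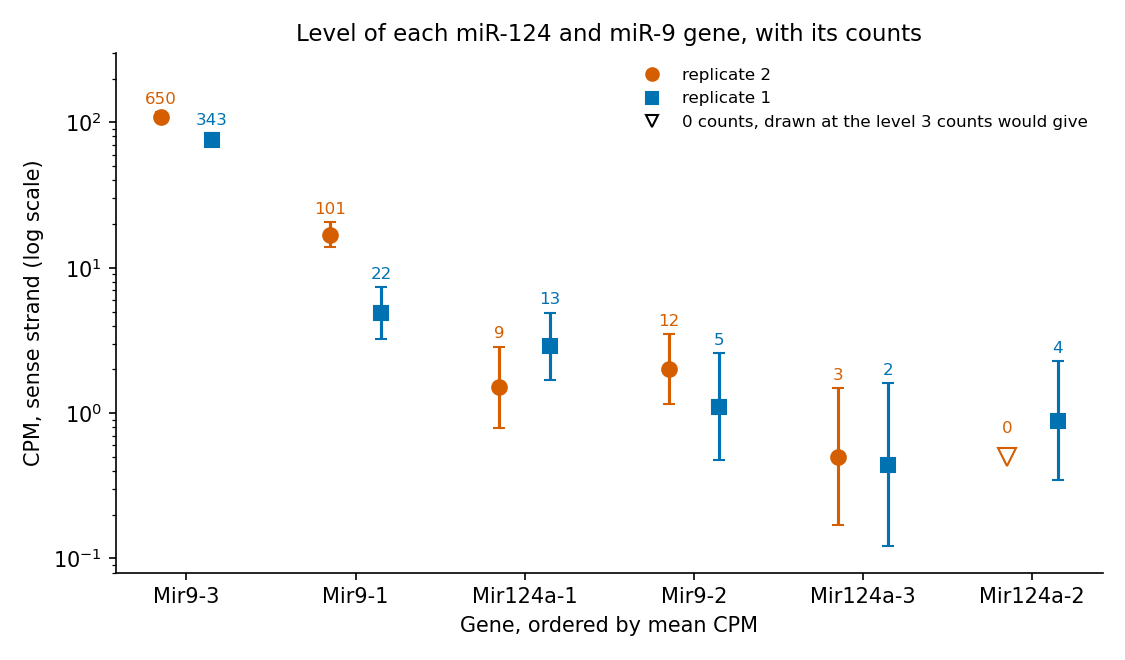
Level of each gene in CPM on a log axis (y) for the 6 genes ordered by mean (x), with replicate 2 as circles, replicate 1 as squares, 95% Wilson intervals as bars and the sense count above each point. Mir9-3 stands at 109 and at 75.9 CPM, Mir9-1 at 16.9 and at 4.87 CPM, and the other 4 genes at 2.88 CPM or lower; the open triangle marks the 0 counts of Mir124a-2 at the level that 3 counts would give.

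The division of a family among its copies was read as shares. Mir9-3 held 85.2% of the miR-9 counts in replicate 2 (95% Wilson interval 82.5 to 87.5) and 92.7% in replicate 1 (89.6 to 94.9). Mir9-1 held 13.2% in replicate 2 (11 to 15.8) and 5.95% in replicate 1 (3.96 to 8.84), and Mir9-2 held 1.57% and 1.35%. Of the copies, only Mir9-1 was tested against Mir9-3. Mir9-1 had 0.155 counts per count of Mir9-3 in replicate 2 and 0.0641 in replicate 1, a 2.42-fold difference (95% interval 1.48 to 4.11; two-sided Fisher's exact test of these counts, p = 1.5e-04, 1 comparison made). The test compares the reads of these libraries and covers counting error only. Among miR-124 counts, Mir124a-1 held 75% in replicate 2 (46.8 to 91.1) and 68.4% in replicate 1 (46.0 to 84.6), of 12 and 19 counts in all; these intervals overlap, and the difference was not tested.

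**Figure D3:**
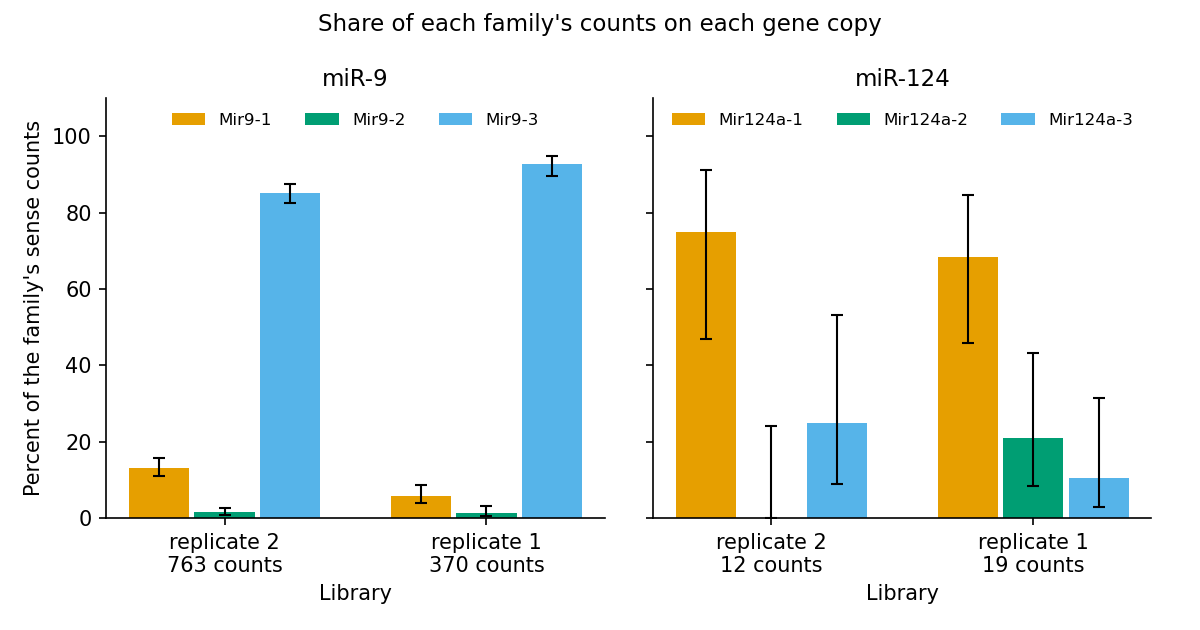
Percent of each family's sense counts (y) that fell on each copy (colours) in replicate 2 and replicate 1 (x), for miR-9 (left) and miR-124 (right), with 95% Wilson intervals as bars. Mir9-3 takes 85.2% and 92.7% of the miR-9 counts and Mir124a-1 takes 75% and 68.4% of the miR-124 counts, where the intervals are wide.

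Only the sense strand carried counts. In the antisense column all 6 genes had 0 counts in both libraries. In the column without regard to strand, 5 of the 6 genes kept exactly their sense counts, whereas Mir9-1 had 0 in both libraries in place of 101 and 22. Gm25641, the annotated miRNA gene on the other strand of Mir9-1, likewise had 0 sense counts and 0 counts without regard to strand, and its antisense column held the 101 and 22 reads of Mir9-1. In the column without regard to strand, from which the counts of Mir9-1 are missing, Mir9-3 held 98.4% of the miR-9 counts. In the sense column it held 88.9% (means of both libraries).

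The reads given to no gene were set beside these counts. Reads mapping to several places numbered 7881244 in replicate 2, which is 48.4% of all its reads, and 5350251 in replicate 1 (45.9%). They outnumbered the 775 counts on the 6 genes by 10169 to 1 in replicate 2 and the 389 counts by 13754 to 1 in replicate 1. In other terms, the counts on the 6 genes came to 0.00983% of the reads mapping to several places in replicate 2 and 0.00727% in replicate 1. Over all miRNA genes there were 1.32 such reads per sense count in replicate 2 and 1.18 in replicate 1. The tables do not say which miRNAs those reads came from, so they give no upper limit for miR-124 or miR-9 below this total. The values above count reads that map to 1 place and are no measure of the amount of mature miR-124 or miR-9 in the tissue.

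The miR-9 genes were then placed among other miRNA genes with and without copies; the miR-124 genes were not matched in RefSeq and have no class here. RefSeq listed mature forms for 1018 of the genes counted. Of these, 37, the miR-9 genes among them, had only forms listed that another gene also makes. An arm that is not listed there does not enter these classes. Of these 37 genes, 27 had no count, and their median was 0 CPM. Only 3 of them stood above Mir9-3, namely Mir219a-2, Mirlet7c-2 and Mir129-1 at 2623, 1285 and 168 CPM. For Mir219a-2 and Mir129-1, 1 form each was listed. Of the 19 with 2 or more listed forms, 6 had counts, and Mirlet7c-2 led ahead of Mir9-3, Mir9-1 and Mir9-2. The 57 genes with both a shared form and one of their own had a median of 21.3 CPM, and 10 of them had no count. The 924 genes with no shared form had a median of 0.555 CPM, with 328 at 0 counts. The classes also differ in which miRNAs they hold, so these medians are descriptions, and nothing about the miR-9 genes is read from them. Of the 7 families of 3 or more genes with an identical mature form in RefSeq, which do not include miR-124, miR-9 had the largest sum, 105 CPM, and the next of these 7 was Mir344d at 2.45 CPM. The miR-124 genes summed to 3.11 CPM.

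Beside 19 miRNAs with 2 gene copies, among them the neuronal miR-128, miR-138 and miR-218, the sums over the 3 copies of miR-9 and of miR-124 lay toward or below the low end. The sum over the miR-9 genes was higher than that of 2 pairs, miR-135a and miR-103, and lower than that of 17. The sum over the miR-124 genes was lower than that of all 19 pairs, whose sums had a median of 409.7 CPM and reached from 24.7 CPM for miR-103 to 14948 CPM for miR-128. The longest stretch in common was 22 to 28 bases in these pairs, against 26 to 33 bases in the miR-9 genes and 31 or 32 in the miR-124 genes. By the mature forms listed in RefSeq, 34 of the 38 genes of these pairs had an arm of their own beside a shared one. Uneven division between copies was common: by mean CPM the higher copy held a median of 82.4% of its pair, from 54.6% for Mir29b-2 to 99.7% for Mir219a-2. By the same measure Mir9-3 held 88.1% of its family, which has 3 copies and not 2. All 12 brain miRNAs with 1 gene that were listed for comparison, mostly known from neurons but with Mir338 of oligodendrocytes among them, stood above Mir9-3, from Mir495 at 108 CPM to Mir139 at 80354 CPM, with a median of 2760.0 CPM. Mir495, with 123 CPM (replicate 2) and 94.1 CPM (replicate 1), was the one whose values overlapped those of Mir9-3. Of these 12 miRNAs, 11 had no listed form that another gene shares. Both arms of Mir9-3 are the same in 3 genes. The part of shared arms or shared stretches in these levels was not tested. Reads mapping to several places are left out, so these levels do not compare amounts of mature miRNA. Both lists were written with earlier results of these data known.

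**Figure D4:**
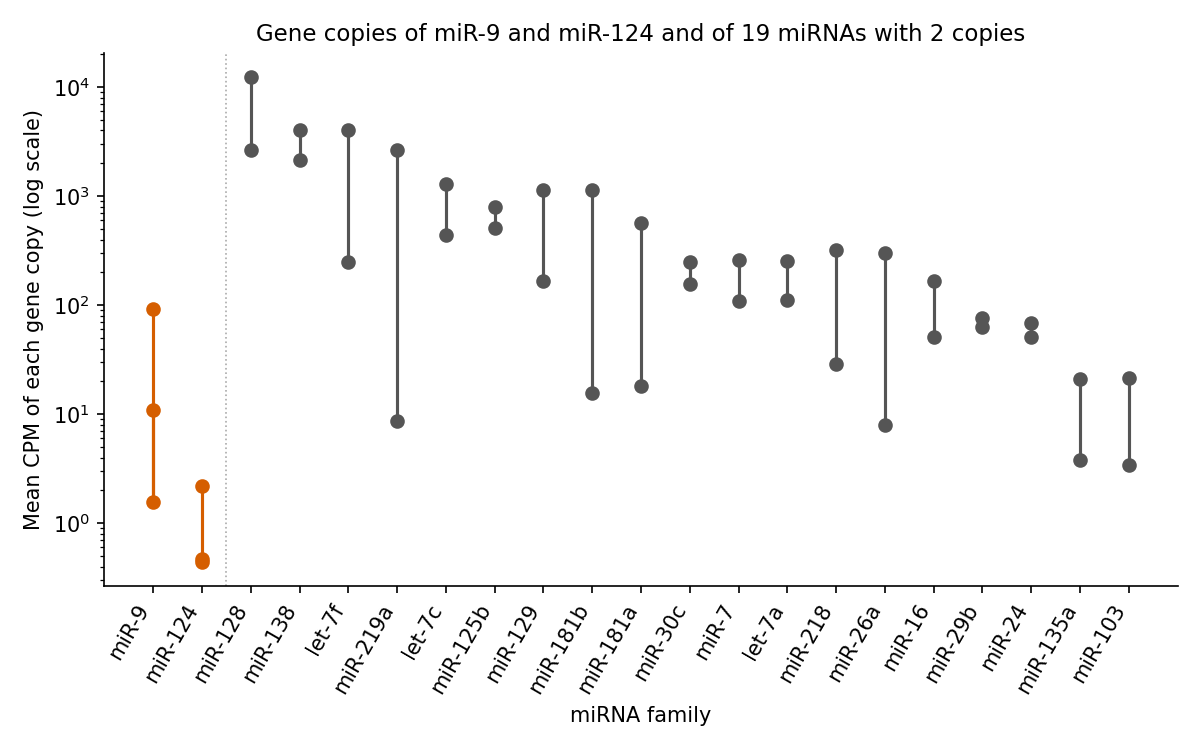
Mean CPM over both libraries on a log axis (y) of each gene copy, joined by a line within a family, for miR-9 and miR-124 (orange) and for 19 miRNAs with 2 copies (grey), ordered by their sums (x). The miR-124 copies, at 2.19, 0.472 and 0.443 CPM, lie below every other copy drawn except Mir9-2 at 1.56 CPM, which lies below Mir124a-1.

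The libraries were compared gene by gene by Fisher's exact test (two-sided) on the counts of a gene against all other sense counts on miRNA genes, for genes with at least 10 counts in both, adjusted over all 420 genes tested by Benjamini and Hochberg. Mir9-3 and Mir9-1 were tested and both were higher in replicate 2, where 27.1% of all genes tested were higher and 56.9% differed in either direction. Mir9-1 was 3.47-fold higher in replicate 2 (95% exact interval 2.17 to 5.78), without a pseudocount, with an adjusted p of 1.3e-08 by Fisher's exact test. The log2 ratios are taken after adding 0.5 CPM in each library. For Mir9-1 this was 1.70, and 7 of the 420 genes had a larger ratio. Mir9-3 was 1.43-fold higher (1.25 to 1.64), a log2 ratio of 0.51 with an adjusted p of 1.6e-07 by the same test, and 58 genes had a larger one. The median log2 ratio over all genes tested was -0.07. Lower in replicate 2 were 29.8% of the genes and neither of these, so a call between these libraries is common in either direction, and it compares libraries of 1 group, not conditions.

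The other 4 genes had fewer than 10 counts in a library and were not tested in this comparison. Their ratios of replicate 2 over replicate 1 were 1.81 for Mir9-2 (95% exact interval 0.595 to 6.57), 0.523 for Mir124a-1 (0.197 to 1.32) and 1.13 for Mir124a-3 (0.130 to 13.6), each with an interval that includes 1. Mir124a-2, with 0 counts in replicate 2 against 4 in replicate 1, had an interval of 0 to 1.14, which also includes 1. Summed over copies, miR-9 was 1.56-fold higher in replicate 2 (1.37 to 1.77), while miR-124 had a ratio of 0.477 (0.211 to 1.04). These intervals cover counting error only.

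**Figure D5:**
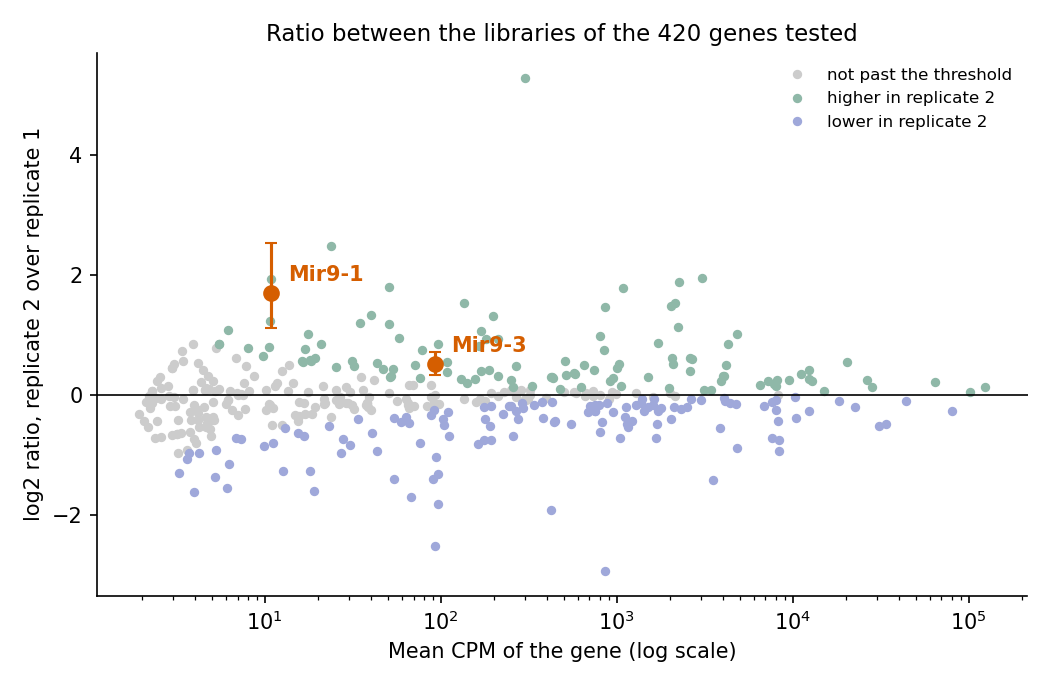
log2 ratio of replicate 2 over replicate 1 (y) against mean CPM on a log axis (x) for the 420 genes tested, coloured by the result of Fisher's exact test at an adjusted p of 0.05. Mir9-1 at 1.70 and Mir9-3 at 0.51 are orange with 95% exact intervals. The points include the pseudocount of 0.5 CPM and the intervals do not. In replicate 2, 114 genes were higher and 125 lower, a balance that turns under TMM factors (122 and 114) and DESeq2 size factors (125 and 113).

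The genes whose levels over both libraries were nearest to those of a miR-9 gene were picked by the distance in log2(CPM + 0.5), over 2 values each. For Mir9-3 these were Mir148b, with 635 counts in replicate 2 and 344 in replicate 1, and Mir325, with 748 and 311. For Mir9-1 they were Mir3069, with 105 and 19, and Mir7224, with 91 and 28. In the comparison of the libraries, 13 of the 38 genes of the 2-copy pairs were higher in replicate 2, 14 were lower and 11 were not called; of the 12 miRNAs with 1 gene, 3 were higher, 8 were lower and 1 was not called. Likeness over 2 libraries of 1 group is a description of level alone.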

How the data were processed

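The authors deposited raw read counts over the miRNA genes of GENCODE M21 on mm10, 1 file per library, per the notes deposited beside them. Nothing was normalized or pooled; the aligner and adapter trimming: not given in the sources used here. The columns (either strand, sense, antisense) carry no names and were identified from their values, and sense counts were used unless another column is named. Reads assigned to no gene did not enter the totals. In the sense column these were unmapped reads, 11.2% in replicate 2 and 11.8% in replicate 1, reads mapping to several places, 48.4% and 45.9%, and reads on no miRNA gene, 3.69% and 3.60%.

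All 2202 identifiers were found in GENCODE M21, which gave symbols, positions and hosts. Hairpins and mature forms were matched by symbol to a RefSeq table of the same assembly, GRCm38.p6, that lists fewer genes than GENCODE. A hairpin window counted as shared if it occurred, on either strand, in an annotated hairpin at a locus not overlapping it. Levels are CPM with 95% Wilson intervals, and ratios have exact binomial intervals; intervals and the floor of 3 counts cover counting error only, because PCR copies of a molecule are counted separately. A single group leaves nothing for edgeR's quasi-likelihood test to contrast, and Fisher's exact test compared the libraries (Python 3.11.15, SciPy 1.17.1); it was tested on simulated data first. The pseudocount was 0.5 CPM. Alternatives were other columns, denominators, count minimums, pseudocounts, TMM factors (edgeR 4.0.16), DESeq2 1.42.0 size factors, a thinned library and leaving out each replicate. The 6 genes were named in full, with the 2 genes nearest in level to each tested one and genes of 2 lists, miRNAs with 2 gene copies and brain miRNAs with 1 gene, mostly neuron-enriched. The members and lists were chosen with earlier results of these data known.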

Additional observations from a re-analysis of the deposited data

How the results depend on the processing

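Mir9-3 and Mir9-1 stayed higher in replicate 2 under each alternative that could be run. Over 11 alternatives the log2 ratio of Mir9-3 lay between 0.44 and 0.56 (adjusted p of 1.1e-08 to 1.8e-05 by Fisher's exact or exact binomial test). Over 9 alternatives that of Mir9-1 lay between 1.15, with a pseudocount of 5 CPM, and 1.74 (4.6e-09 to 1.1e-07 by the same tests). Count minimums and pseudocounts could not turn the direction, because they leave the counts of a gene and the totals as they are. The column without regard to strand kept the counts of Mir9-3. Under TMM factors, DESeq2 size factors, the thinned library and all reads as denominator, the log2 ratios of Mir9-3 were 0.55, 0.56, 0.46 and 0.44. Those of Mir9-1 were 1.73, 1.74, 1.69 and 1.49. Mir9-1 could not be tested without regard to strand, where it has no count, or at a minimum of 100 counts. Mir9-3 was then the only 1 of the 6 genes tested, and it was past the threshold under either. Over all genes, 218 of 393 tested differed without regard to strand, and 200 of 270 at a minimum of 100 counts. The number of genes that differ lay between 200 and 251 over 9 alternatives, but the number tested moved too. With no filter 223 of 2202 genes differed, at a minimum of 1 count 244 of 627, and with all reads as denominator 251 of 420. In the main comparison 239 genes differed of 420 tested. Of these 239 genes, 114 were higher and 125 lower in replicate 2, against 122 and 114 after TMM scaling, 125 and 113 after scaling by DESeq2 and 97 and 154 with all reads as denominator. Without regard to strand, where the counts of Mir9-1 are missing, the share of miR-9 counts on Mir9-3 was 98.4%. Per 1000000 of all reads, the mean levels were 39.3 for the miR-9 genes and 1.18 for the miR-124 genes; over the other denominators and columns they were 95.4 to 119.8 and 2.84 to 3.54. Leaving out each replicate gave 81.9 to 128 CPM for miR-9, 2.01 to 4.21 CPM for miR-124, 85.2% to 92.7% on Mir9-3, and 10169 to 13754 reads mapping to several places per count on the 6 genes. It also gave medians of 0 CPM for genes with only shared mature forms listed and 0.443 to 0.502 CPM for those with none. Those medians were 7.41 CPM over 10 genes and 3.84 CPM over 596 when only genes with a count were used, and 0 and 0.194 CPM when a copy meant a stretch of 20 or more bases. No paired analysis was possible because there is 1 group.

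Counts were few for 4 of the 6 genes: Mir124a-2 and Mir124a-3 had at most 4 in a library, and Mir124a-1 and Mir9-2 at most 13. At a minimum of 5 counts Mir124a-1 and Mir9-2 entered the test and neither passed (adjusted p of 0.23 and 0.46 by Fisher's exact test).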
